A study of Mus musculus with 43 samples.

Results

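These results concern the inguinal white fat of mice that lacked Runx2 in adipocytes, compared with its own control: 6 of the 43 RNA libraries of the series, chosen as the columns of the tissue count matrix made for this knockout. Both groups hold 3 libraries of polyA RNA from inguinal white adipose tissue (iWAT). The 3 controls are labelled WT with the treatment Runx2 flox, taken here to be floxed mice without the recombinase, and the 3 knockouts are labelled Knock out Runx2 with the treatment Adipoq-cre:Runx2 KO. The age, sex, diet and housing temperature of the mice are not given in the sources used here. Adipoq-cre is driven by the adiponectin promoter and acts in adipocytes, so vessel cells, stromal cells and leukocytes of the same tissue keep an intact Runx2 gene. The labels do not say whether the 3 libraries of a group came from 3 animals, so the p-values below measure the spread between these libraries.

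RUNX proteins are transcription factors that bind DNA as a pair with CBFB at sites containing TGTGGT and either activate genes or recruit corepressors of the TLE family. RUNX2 is best known as the factor that bone-forming cells require, and RUNX1 and RUNX3 act in blood and lymphocytes. Inguinal fat can gain beige adipocytes, which burn fat through uncoupling protein 1 (UCP1) and make many genes of brown fat. The series' title concerns beige fat after deletion of either gene in adipocytes, which is the question this comparison addresses. The inguinal depot also surrounds a lymph node and lies on skeletal muscle.

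The libraries held 37004302 to 44374156 counts over 26264 genes. Their levels are given below as CPM, the count scaled to the library's size by TMM, which do not allow for gene length. Where values are set against each other, those of control libraries 1, 2 and 3 come first and those of knockout libraries 1, 2 and 3 second. Differences are given as log2 knockout minus control with a standard error (SE). All 6 libraries had 88.7 to 153 CPM of the Y-linked Ddx3y and at most 0.191 CPM of Xist. All had the defining adipocyte genes: Adipoq stood at 971, 1193 and 2859.5 CPM in the controls and 3305, 2565 and 3123 CPM in the knockouts. Control 3 stood apart from controls 1 and 2 in several ways. Its 26 skeletal muscle genes summed to 10370 CPM, against 145.5 and 168 CPM in controls 1 and 2 and 221.1, 651.9 and 504.8 CPM in the knockouts. Ckm, muscle creatine kinase, stood at 0.143, 0.0645 and 848 CPM in the controls and 0.358, 32.5 and 22.1 CPM in the knockouts, and Acta1, skeletal muscle actin, at 22.4, 61.4 and 1718 CPM in the controls and 131, 200 and 179 CPM in the knockouts. The adipocyte identity list summed to 108300 CPM in control 3, against 40310 and 45510 CPM in the other controls and 107700 to 127000 CPM in the knockouts. The 14 B cell genes summed to 473.6 CPM in control 3, 2809 and 2984 CPM in controls 1 and 2, and 417.4 to 964.2 CPM in the knockouts. The 16 T cell genes summed to 1124, 2813 and 2399, and 868.7 to 1173 CPM in the same order. Across 15574 genes, Pearson's r of log2 levels was 0.989 between controls 1 and 2, 0.929 and 0.935 between control 3 and those, and 0.972 to 0.979 between control 3 and the knockouts (genes are not independent replicates). Control 3 was thus the muscle-rich library and also the control nearest the knockouts in adipocyte and lymphocyte genes. Whether control 3 carries the right label or is a mixed sample was not tested. Library values and list counts are given with control 3, beside the fit without it, and the fit without it compares the knockouts with the 2 controls that held the fewest adipocyte and the most lymphocyte transcripts. In bulk tissue, fewer cells of a type and less RNA per cell cannot be told apart.

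**Figure D1:**
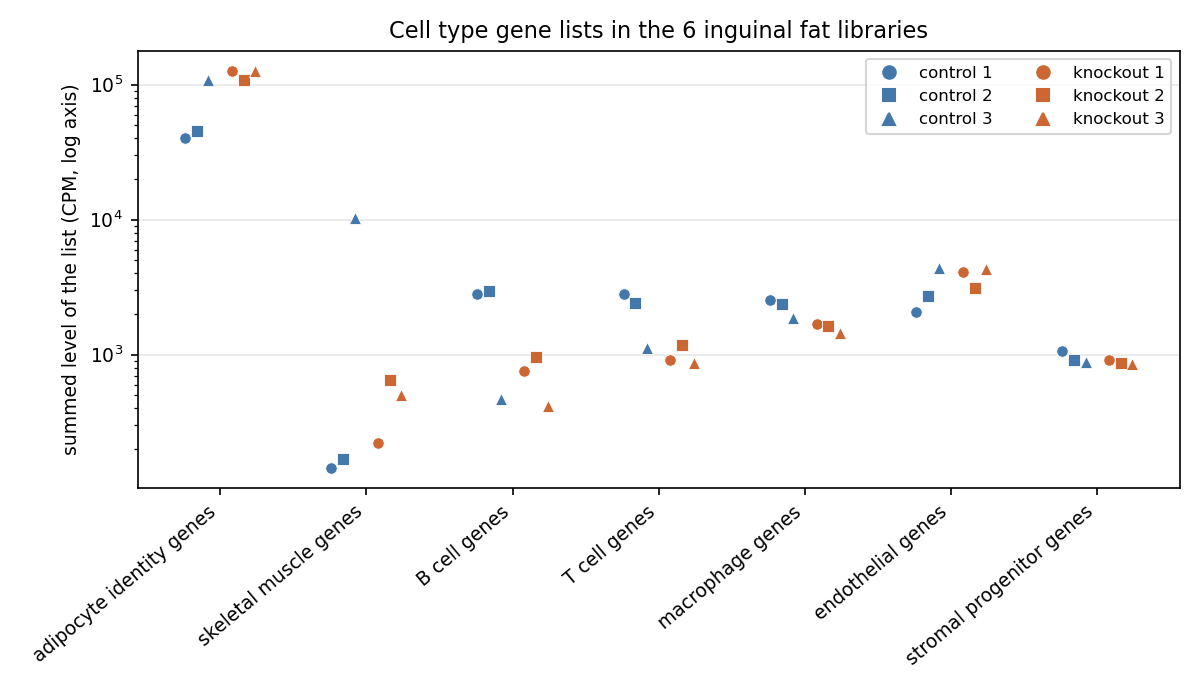
Summed level of 7 cell type lists (CPM, log axis) in each of the 6 libraries; blue points are controls and orange points knockouts, with a circle, square and triangle for replicates 1, 2 and 3. Control 3 lies at 10370 CPM for skeletal muscle genes, above the other libraries, and among the knockouts for adipocyte, B cell and T cell genes.

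Runx2 itself was scarce in this tissue, at 15, 10.5 and 4.2 CPM in the controls and 3.82, 6.75 and 2.4 CPM in the knockouts. The lowest control, number 3, lay between the knockouts, so the groups overlapped. The difference was -1.19 ± 0.54 with all libraries (edgeR quasi-likelihood adjusted p = 0.254) and -1.55 ± 0.38 without control 3 (adjusted p = 0.0104). A whole-gene count also includes transcripts of cells that keep the gene and any transcript that lacks only the deleted part, whose position is not given in the sources used here. Runx1 was lower too, at 34.8, 31.2 and 14.7 CPM in the controls and 12.3, 11.9 and 8.99 CPM in the knockouts, with no overlap between the groups. Its difference was -1.28 ± 0.33 (adjusted p = 0.218) and, without control 3, -1.57 ± 0.18 (adjusted p = 0.000444). Runx3, a lymphocyte factor, stood at 29.3, 32 and 9.61 CPM in the controls and 10.3, 17.3 and 9.08 CPM in the knockouts, and Cbfb, the partner of all 3 RUNX proteins, at 77.3, 70.4 and 48.1 CPM in the controls and 43.1, 53.5 and 39.3 CPM in the knockouts. Both fell without control 3, by 1.32 and 0.70 on the log2 scale, and overlapped with it. All 4 genes were highest in controls 1 and 2, the libraries with the highest B and T cell sums. Those sums were far lower in control 3 and in every knockout, so a lymphocyte score largely separates controls 1 and 2 from the other libraries. A fit with this score as a covariate, an alternative added after seeing the data, cannot tell its part from that of the group. With it, the edgeR differences over all libraries were -0.56 for Runx1, -0.09 for Runx2, 0.15 for Runx3 and -0.13 for Cbfb, with adjusted p of 0.224 to 0.918. Tle1, a Groucho corepressor that RUNX proteins recruit, went the other way, at 50.8, 62.8 and 79.4 CPM in the controls and 147, 85.3 and 109 CPM in the knockouts (1.0 ± 0.23 without control 3, adjusted p = 0.00731). So did Wwtr1, the TAZ coactivator, at 43.8, 70.5 and 99.5 CPM in the controls and 146, 127 and 138 CPM in the knockouts (1.26 ± 0.21, adjusted p = 0.00163). Of 19 genes of the RUNX family and its partners, 4 rose and 6 fell without control 3, near the shares of all genes (20.9% and 19.1%). With all libraries 2 were higher and 3 lower without overlap, and DESeq2 called 1 each way. The calls of Runx2, Cbfb and Tle1 ended, at adjusted p of 0.0923, 0.0569 and 0.0666, when control 1 was left out as well.

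With all 6 libraries, 0 of 15574 tested genes passed an adjusted p of 0.05 by edgeR's quasi-likelihood test. The smallest adjusted p was 0.117, and 3206 genes (20.6%) had an unadjusted p under 0.05, of which 1469 were higher (9.43%) and 1737 lower (11.2%) in the knockouts. DESeq2 called 1039 of 14861 genes on the same counts (6.99%), 567 higher (3.82%) and 472 lower (3.18%). In 3835 genes (24.6%) the 3 knockouts did not overlap the 3 controls: 2127 were higher (13.7%) and 1708 lower (11%). For a single gene, an exact test of 3 against 3 libraries cannot go below p = 0.10. Without control 3, edgeR called 6354 of 15875 genes (40%), 3317 higher (20.9%) and 3037 lower (19.1%), of which 1582 and 1577 had at least a 2-fold difference. DESeq2 then called 6974 (43.9%). Of the 1039 genes that DESeq2 called with all libraries, 1024 were among the 6354. Below, "rose" and "fell" mean a call without control 3 unless DESeq2 with all libraries is named. Bracketed differences are from the edgeR fit without control 3 unless another is named. List counts are to be read against these shares of all genes. Where a list's all-library counts are bracketed, the first number of each pair is higher and the second lower in the knockouts, and apart means no overlap between the groups.

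Thermogenic genes were higher in the knockouts. Of 32 genes of thermogenic and beige fat, 21 of 30 tested rose and 2 fell without control 3, with a median difference of 1.78 against 0.00 over all genes. With all 6 libraries, 14 of 29 tested were higher in every knockout than in every control (13.7% of all genes), 2 were lower, and DESeq2 called 13 higher (3.82% of all genes) and 0 lower. The all-library median was 1.07, against -0.04 over all genes. By edgeR with all libraries 0 of the 29 passed, 17 were higher at an unadjusted p under 0.05 (9.43% of all genes) and 2 lower.

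Ucp1, the uncoupling protein of brown and beige mitochondria, stood at 5.21, 3.42 and 19.5 CPM in the controls and 68.4, 613 and 471 CPM in the knockouts. Knockouts 2 and 3 held several times the level of knockout 1, and control 3 the highest level of the controls; the groups did not overlap. The difference was 5.36 ± 1.03 with all libraries (edgeR adjusted p = 0.218, DESeq2 adjusted p = 1.01e-08) and 6.48 ± 1.24 without control 3 (edgeR adjusted p = 0.0146). That call was lost, at adjusted p of up to 0.184, when control 1, control 2 or knockout 3 was left out as well and at 0.0596 with no count filter, while the difference stayed between 5.97 and 6.98 in these fits and those without the other libraries. Elovl3, a fatty acid elongase induced in cold-exposed brown fat, was close to absent from the controls, at 0.0478, 0.043 and 0.0509 CPM, and stood at 1.14, 9.31 and 5.88 CPM in the knockouts. These are 2 counts in each control and 38, 403 and 206 in the knockouts, a ratio of the summed levels of 123, with a 95% exact interval of 56.3 to 337 that covers counting error only and would be wider if both mates of a pair were counted (edgeR adjusted p = 0.00211 without control 3). Its knockout libraries were in the same order as for Ucp1. Dio2, the deiodinase that makes active thyroid hormone inside brown adipocytes, stood at 6.36, 6.58 and 12.7 CPM in the controls and 33.3, 109.5 and 89.5 CPM in the knockouts. It rose by 3.59 ± 0.52 without control 3 (adjusted p = 0.00207) and by 3.18 in the DESeq2 test of all libraries (adjusted p = 3.86e-08). The level of Cidea, which enlarges lipid droplets in brown fat, was 17.3, 12.2 and 29 CPM in the controls and 57, 166 and 209 CPM in the knockouts, with knockout 1 again the lowest of the knockouts (3.29 ± 0.58, adjusted p = 0.00571). The calls of Elovl3, Dio2 and Cidea ended, at adjusted p of 0.06 to 0.117, when control 1 or control 2 was left out as well.

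Slc27a2, a fatty acid transporter and very long chain acyl-CoA synthetase, stood at 1.29, 0.774 and 1.45 CPM in the controls and 9.62, 28.5 and 23.9 CPM in the knockouts. It had one of the lowest p-values with all libraries (4.14 ± 0.48, adjusted p = 0.195; DESeq2 adjusted p = 1.25e-15). Gk, glycerol kinase, which recycles glycerol within the fat cell, stood at 7.46, 7.03 and 8.24 CPM in the controls and 19.7, 111 and 82.7 CPM in the knockouts, so that knockout 1 again lay nearest the controls. Plin5, which ties lipid droplets to mitochondria, stood at 2.49, 5.5 and 17 CPM in the controls and 23, 55.8 and 49.4 CPM in the knockouts, and Ppara, a nuclear receptor for fatty acid oxidation, at 1.98, 3.59 and 10.7 CPM in the controls and 14.3, 57.8 and 57.7 CPM in the knockouts. Their differences without control 3 were 3.3 ± 0.78, 3.42 ± 0.49 and 3.95 ± 0.73 in that order, with adjusted p of 0.0225, 0.00162 and 0.00739. Leaving out control 1 or control 2 as well ended the calls of Gk, at 0.246 and 0.226, and of Ppara, at 0.141 and 0.0928, and leaving out knockout 3 also ended that of Gk, at 0.112. Kcnk3, a potassium channel of thermogenic adipocytes, stood at 41.8, 28.7 and 76.4 CPM in the controls and 96.8, 154 and 196 CPM in the knockouts (2.08 ± 0.30, adjusted p = 0.00114).

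**Figure D2:**
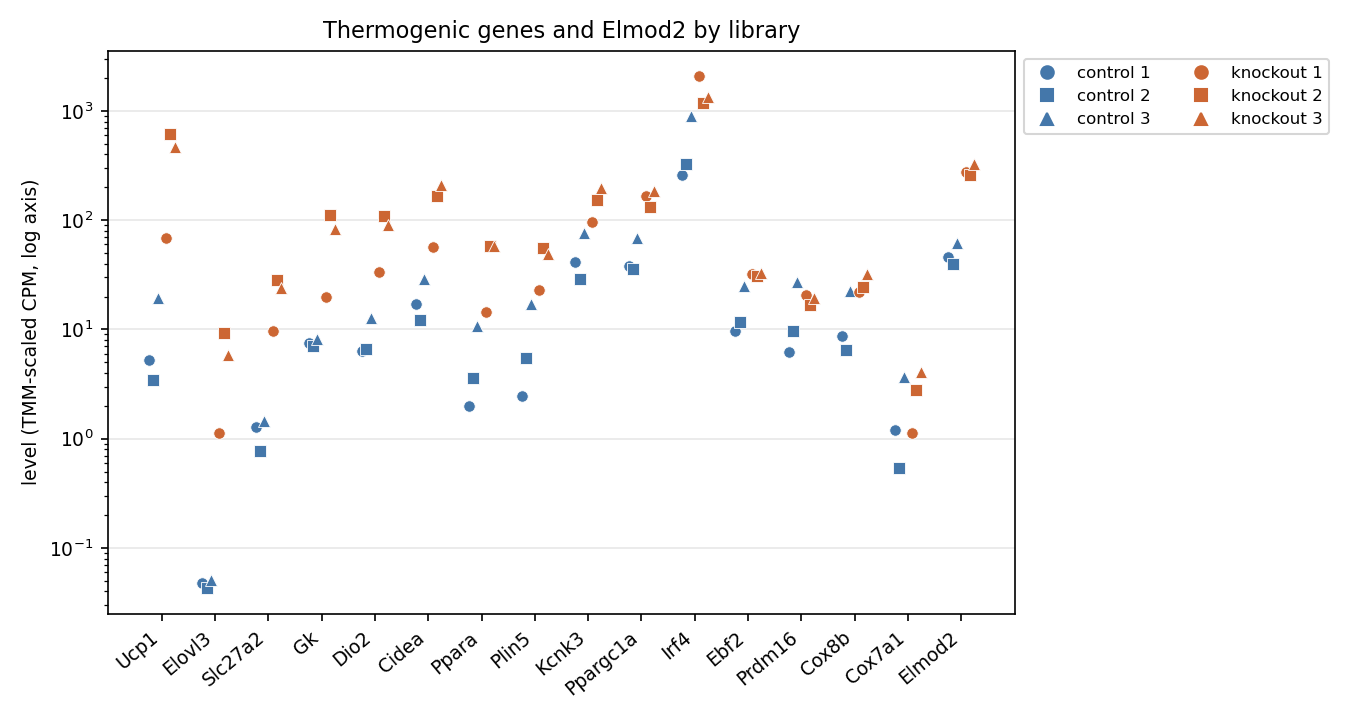
Level of 15 thermogenic genes and Elmod2 (TMM-scaled CPM, log axis) in each library; colours and shapes mark controls, knockouts and replicates. Ucp1, Elovl3, Slc27a2, Dio2 and Elmod2 show every knockout above every control, and Prdm16, Cox8b and Cox7a1 show control 3 within or above the knockouts.

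Among regulators of the program, Ppargc1a, the coactivator of mitochondrial biogenesis, stood at 38, 36 and 68.8 CPM in the controls and 166, 132 and 185 CPM in the knockouts (1.76 ± 0.29 with all libraries; 2.13 ± 0.18 without control 3, adjusted p = 0.000252). Irf4, which acts with PGC-1α on thermogenic genes in fat and is also a lymphocyte factor, stood at 259, 329.8 and 904 CPM in the controls and 2076, 1176 and 1345 CPM in the knockouts (2.38 ± 0.28, adjusted p = 0.000483). The B and T cell sums of the knockouts were below those of controls 1 and 2 and overlapped that of control 3. Over all libraries the edgeR difference of Irf4 was 1.62 (adjusted p = 0.218). It was 1.01 with the lymphocyte score as a covariate (adjusted p = 0.209) and 0.88 scaled to the adipocyte identity list (adjusted p = 0.0768). The part of lymphocytes in it was not tested. Ebf2, an early brown and beige lineage factor, stood at 9.59, 11.7 and 25.2 CPM in the controls and 31.9, 30.8 and 32.9 CPM in the knockouts (1.59 ± 0.17, adjusted p = 0.000362). Prdm16, which holds the brown fat program in place, stood at 6.17, 9.76 and 27.1 CPM in the controls and 20.7, 16.8 and 19.6 CPM in the knockouts: control 3 was the highest of all 6, so its difference was 0.41 ± 0.50 with all libraries (adjusted p = 0.626) and 1.26 ± 0.24 without it (adjusted p = 0.00301). Cox8b and Cox7a1, respiratory subunits shared by muscle and brown fat, overlapped as well, at 8.7, 6.45 and 22.7 CPM in the controls and 22.1, 24.6 and 32.5 CPM in the knockouts for Cox8b and 1.2, 0.537 and 3.69 against 1.14, 2.8 and 4.08 CPM for Cox7a1. The 13 listed genes that muscle and thermogenic fat share summed to 3893 CPM in the muscle-rich control 3, 517.4 and 644.2 CPM in controls 1 and 2, and 2259 to 2522 CPM in the knockouts. The 2 thermogenic list members that fell were the beige surface markers Tmem26, at 8.1, 5.68 and 3.38 CPM in the controls and 2.81, 3.7 and 2.25 CPM in the knockouts, and Tnfrsf9 (CD137), at 22.2, 17.1 and 12.5 CPM in the controls and 10.6, 9.47 and 10.1 CPM in the knockouts. Their differences without control 3 were -1.23 ± 0.29 (adjusted p = 0.00957) and -0.96 ± 0.19 (adjusted p = 0.00356). Tnfrsf9 is also made by activated T cells. The call of Tmem26 ended without control 1 as well (adjusted p = 0.107), and that of Cox7a1 without any of 4 other libraries (adjusted p of 0.0616 to 0.236).

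The gene with the smallest p-value of all 15574 in the 6-library fit was Elmod2, which encodes a GTPase-activating protein for ARF-family GTPases and is the protein-coding neighbour of Ucp1 on mouse chromosome 8. It stood at 46.5, 39.8 and 61.9 CPM in the controls and 276, 258 and 325 CPM in the knockouts. The 3 knockouts lay close together, far above the controls, and knockout 1, the lowest for Ucp1, lay between the other two. The difference was 2.53 ± 0.23 with all libraries (edgeR adjusted p = 0.117, DESeq2 adjusted p = 3.55e-23) and 2.73 ± 0.18 without control 3 (adjusted p = 0.000201). Tbc1d9, the neighbour on the other side of Ucp1, stood at 35.8, 35.3 and 22.9 CPM in the controls and 22.5, 25 and 24.2 CPM in the knockouts and was lower without control 3 (-0.57 ± 0.14, adjusted p = 0.0111). Scoc, which lies beyond Elmod2 on the same side, stood at 25.6, 26.6 and 36.6 CPM in the controls and 40.4, 48.3 and 50.5 CPM in the knockouts (0.83 ± 0.16, adjusted p = 0.00296). The call of Tbc1d9 ended when control 1 was left out as well (adjusted p = 0.0628). Beyond Tbc1d9, Rnf150 (0.0081 ± 0.17, adjusted p = 0.973) and Zfp330 (0.097 ± 0.15, adjusted p = 0.632) were not called. Between Elmod2 and Scoc, Mgat4d had 0 counts in every library and Clgn had too few to be tested. These neighbours were chosen after the value of Elmod2 was seen.

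The promoters of the 2 adjoining genes, and of Dio2 and Slc27a2, are shown because these 4 genes separated the groups in every library, and that of Runx2 because it is the deleted gene. Each runs from 250 bases before to 50 after the start in RefSeq's mouse build GRCm38.p6, 5′ to 3′ on the gene's strand; the counts were made on another build, mm39. Capitals mark a match on either strand, to TGTGGT, the core of the RUNX site, in Elmod2, Slc27a2 and Runx2, to TGACGTCA, the full cAMP response element, in Dio2, and to TGACG, the first letters of that element, in Ucp1.
Elmod2 (chr8:83332437-83332736, minus strand): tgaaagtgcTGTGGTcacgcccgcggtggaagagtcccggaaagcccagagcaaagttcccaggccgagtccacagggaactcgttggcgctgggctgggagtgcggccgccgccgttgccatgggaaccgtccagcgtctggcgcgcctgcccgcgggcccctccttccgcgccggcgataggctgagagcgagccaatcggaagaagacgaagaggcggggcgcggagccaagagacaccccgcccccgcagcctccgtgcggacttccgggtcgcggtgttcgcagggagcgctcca
Ucp1 (chr8:83290098-83290397, plus strand): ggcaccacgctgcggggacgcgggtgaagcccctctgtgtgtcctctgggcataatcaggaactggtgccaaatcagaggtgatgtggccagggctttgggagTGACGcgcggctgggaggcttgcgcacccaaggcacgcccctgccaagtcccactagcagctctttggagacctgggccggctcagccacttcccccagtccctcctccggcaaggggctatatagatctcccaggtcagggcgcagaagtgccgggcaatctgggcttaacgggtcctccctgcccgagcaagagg
Dio2 (chr12:90738989-90739288, minus strand): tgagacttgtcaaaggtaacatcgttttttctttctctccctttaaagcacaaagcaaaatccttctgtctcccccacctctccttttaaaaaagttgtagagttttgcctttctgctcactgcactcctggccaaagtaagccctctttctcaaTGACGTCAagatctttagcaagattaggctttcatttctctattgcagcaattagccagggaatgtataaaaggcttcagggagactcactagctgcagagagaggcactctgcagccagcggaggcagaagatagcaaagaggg
Slc27a2 (chr2:126552774-126553073, plus strand): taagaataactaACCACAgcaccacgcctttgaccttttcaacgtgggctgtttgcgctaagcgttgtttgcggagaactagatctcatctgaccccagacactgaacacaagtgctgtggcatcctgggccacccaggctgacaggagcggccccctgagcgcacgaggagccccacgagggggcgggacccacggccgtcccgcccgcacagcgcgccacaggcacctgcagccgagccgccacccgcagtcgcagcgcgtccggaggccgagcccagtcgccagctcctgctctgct
Runx2 (chr17:44814578-44814877, minus strand): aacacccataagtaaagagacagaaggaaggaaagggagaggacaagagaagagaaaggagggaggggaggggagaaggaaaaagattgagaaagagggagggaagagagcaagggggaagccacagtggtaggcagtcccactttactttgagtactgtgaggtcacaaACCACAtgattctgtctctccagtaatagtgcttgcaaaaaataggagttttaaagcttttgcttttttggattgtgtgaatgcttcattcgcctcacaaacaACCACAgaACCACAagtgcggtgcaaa
The Elmod2 match begins 241 bases before the start and that of Slc27a2 238 bases before it. The Runx2 promoter has 3 matches, 1 that begins 80 bases before the start and 2 at 23 and 31 bases after it. The Dio2 element begins 95 bases before the start, and the match of Ucp1 147 bases before it. Each window was marked for a single motif, and those of Dio2 and Ucp1 hold no TGTGGT on either strand. Of 32851 promoters of this length, 16.8% hold TGTGGT, 1.79% TGACGTCA and 20.8% TGACG, which includes every promoter with the full element. TGTGGT was in 11.8% of the 3346 promoters matched to genes that rose without control 3, 15.4% of the 3094 matched to genes that fell and 13.3% of the 15730 matched to genes tested. TGACGTCA was in 3.11%, 1.55% and 2.77% of the same promoters, and TGACG in 29.9%, 23.2% and 28.6%. A match of letters is a description of the window and does not show a bound site.

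Because adipocyte transcripts were more abundant in the knockouts than in controls 1 and 2, each gene was also expressed per 10000 CPM of the adipocyte identity list. On that scale Ucp1 stood at 1.29, 0.751 and 1.80 in the controls and 5.44, 56.9 and 37.1 in the knockouts, and Elmod2 at 11.5, 8.74 and 5.71 against 21.9, 23.9 and 25.6. Neither overlapped. The values of Dio2 were 1.58, 1.45 and 1.17 against 2.65, 10.2 and 7.05, and those of Ppargc1a 9.42, 7.91 and 6.35 against 13.3, 12.3 and 14.5. Cidea, Elovl3, Slc27a2, Ppara and Plin5 did not overlap on this scale either, although knockout 1 lay near the controls for Cidea, at 4.54 against at most 4.28. Ebf2, at 2.38, 2.57 and 2.33 in the controls and 2.54, 2.86 and 2.59 in the knockouts, and Prdm16, Cox8b, Kcnk3 and Gk overlapped. Together, 10 of 29 tested thermogenic genes were higher in every knockout on this scale, 4 were lower and 15 overlapped. Over all tested genes 0.841% were higher and 37.1% lower. A different scaling, also added after seeing the data, was used in edgeR: the geometric mean of the list's counts in place of their sum. The median difference of all genes was then -1.11, against -0.04 by TMM. With this edgeR scaling the difference of Ucp1 was 4.77 (adjusted p = 0.0652) and that of Elmod2 1.53 (adjusted p = 0.0652). With a skeletal muscle score as a covariate and all 6 libraries, they were 5.61 (adjusted p = 0.0114) and 2.58 (adjusted p = 0.0103). The muscle list summed to 10370 CPM in control 3 and 145.5 to 651.9 CPM in the others, so this score mostly sets control 3 apart. That fit is therefore not a check separate from leaving control 3 out. A lymphocyte score gave 4.87 for Ucp1 (adjusted p = 0.342) and 2.25 for Elmod2 (adjusted p = 0.00318).

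**Figure D3:**
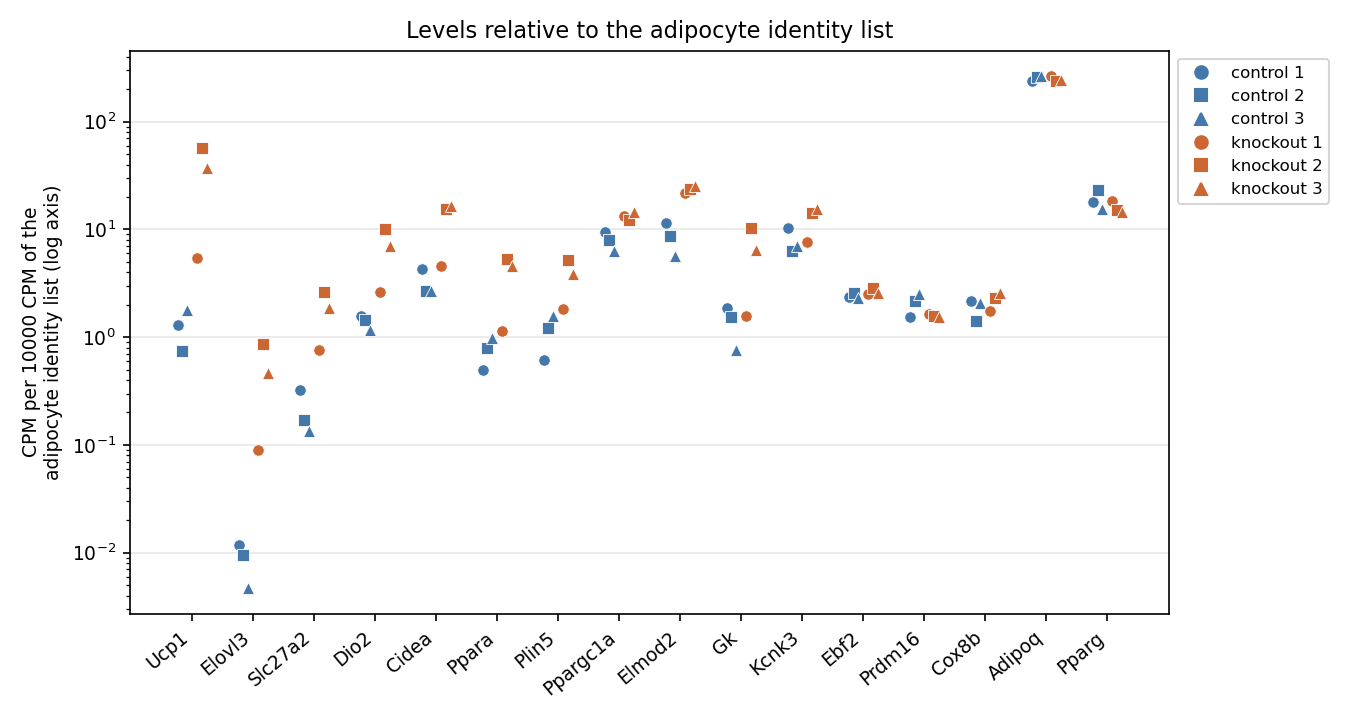
Level of each gene per 10000 CPM of the adipocyte identity list (log axis) in each library, with colours and shapes as before. Ucp1, Elovl3, Slc27a2, Dio2, Ppargc1a and Elmod2 keep every knockout above every control, and Adipoq, Pparg, Ebf2 and Prdm16 overlap.

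Most mitochondrial fuel genes rose in the fit without control 3. In the same fit 9 of 26 skeletal muscle genes rose and 1 fell (median 1.97). Their sums were 221.1 to 651.9 CPM in the knockouts against 145.5 and 168 CPM in controls 1 and 2. The adipocyte identity list summed to 107700 to 127000 CPM in the knockouts against 40310 and 45510 CPM in those controls. The part of either list in these results was not tested. All 22 genes of the TCA cycle list rose and 21 of the 22 were higher in every knockout than in every control (13.7% of all genes); DESeq2 called 18 with all libraries. Pcx, pyruvate carboxylase, stood at 198, 253 and 694 against 1302, 1245 and 1183 CPM (2.47 ± 0.20, adjusted p = 0.000252). Mdh1, a malate dehydrogenase, stood at 247, 261 and 502 against 758, 753 and 839 CPM (1.63 ± 0.17). Fh1, fumarase, stood at 63.8, 77.8 and 139 against 194, 206 and 210.2 CPM (1.53 ± 0.16). Of 24 fatty acid oxidation genes, 22 rose and 1 fell, and 18 of 23 did not overlap, all of them higher. Eci1, an isomerase for unsaturated fatty acids, stood at 60.5, 65.8 and 147 against 205, 194 and 214 CPM (1.7 ± 0.15, adjusted p = 0.000256). Cpt2, the inner-membrane carnitine palmitoyltransferase, stood at 62.9, 64.1 and 139 against 200.3, 187 and 174 CPM (1.56 ± 0.15). The member that fell was Cpt1a, the broadly made outer-membrane transferase, at 67.6, 97.6 and 40.4 against 49.9, 51.6 and 41.8 CPM (-0.79 ± 0.18, adjusted p = 0.00786; 0.0833 without control 2 as well).

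Of 72 nuclear-encoded subunits, 56 rose and 0 fell, against 20.9% and 19.1% of all genes. The median was 0.93 without control 3 and 0.60 with it, and 18 were higher without overlap (13.7% of all genes). Cyc1, cytochrome c1, stood at 103, 106 and 202 against 255, 272 and 312 CPM (1.43 ± 0.16, adjusted p = 0.000402). Uqcrc2, a core subunit of complex III, stood at 150.3, 157 and 273 against 338, 389.8 and 402 CPM (1.3 ± 0.16). Ndufa10, of complex I, stood at 112, 113 and 203 against 282, 261 and 269.5 CPM (1.27 ± 0.15). The fuel genes named so far that rose were also fitted with all libraries under the alternatives, scaling to the adipocyte list among them. Their lowest differences were 0.98 for Pcx, 0.33 for Mdh1, 0.33 for Eci1 and 0.24 for Fh1. For Cpt2, Cyc1, Uqcrc2 and Ndufa10 they were 0.22, 0.14, 0.04 and 0.0014. A pair of mitochondrial carriers were among the genes named by size or p-value. Slc25a42, which imports coenzyme A, stood at 11.9, 12 and 18.1 against 39.9, 40.3 and 42.5 CPM (1.55 ± 0.21 with all libraries, adjusted p = 0.218; DESeq2 adjusted p = 3.86e-08). Slc25a34, a carrier of unsettled substrate, stood at 1.12, 2.19 and 14.2 against 15.1, 28.9 and 38.9 CPM (4.05 ± 0.47, adjusted p = 0.000552).

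General adipocyte genes also rose without control 3, but most did not separate the groups with it. Of 27 tested adipocyte identity genes, 26 rose and 0 fell (median 1.47), against 20.9% and 19.1% of all genes. In 10 of them every knockout was above every control (13.7% of all genes). Pparg, the master factor of fat cells, stood at 72.1, 106 and 168 against 229, 163 and 184 CPM (0.73 ± 0.32 with all libraries, adjusted p = 0.247; 1.11 ± 0.21 without control 3, adjusted p = 0.00346). Fabp4, the fat cell fatty acid binding protein, stood at 8621, 9759 and 19650.0 against 19803, 19030.0 and 26933 CPM (1.26 ± 0.25, adjusted p = 0.00399). Plin1, which coats the lipid droplet, did not overlap, at 326, 589 and 1092 against 1437, 1702 and 1422 CPM (1.74 ± 0.27, adjusted p = 0.00129). Slc2a4, the insulin-regulated glucose transporter, stood at 67.2, 83.3 and 264 CPM in the controls and 271, 241 and 255 CPM in the knockouts, with control 3 among the knockouts, and Gpd1, a glycerol phosphate dehydrogenase, did likewise at 193, 216 and 744 against 787, 682 and 677 CPM. Lep, the satiety hormone of fat, was the list member that was not called: it stood at 77.7, 228 and 397 against 150.2, 161 and 101 CPM, with a difference of -0.77 ± 0.52 with all libraries and -0.15 ± 0.42 without control 3 (adjusted p = 0.801), whose sign turned when control 2 was left out as well.

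Of 16 lipolysis genes, 12 rose and 2 fell (all libraries: 9 and 1 apart, DESeq2 4 and 1). For each list of this paragraph, the shares of all genes were 20.9% and 19.1% (all libraries: 13.7% and 11% apart, DESeq2 3.82% and 3.18%). Pnpla2, the first lipase of fat breakdown (ATGL), stood at 1357, 1756 and 4567 against 8323, 5759 and 5477 CPM (2.07 ± 0.27, adjusted p = 0.000618). Adrb3, the adrenaline receptor most specific to fat cells, overlapped at 137, 102 and 179.8 against 107, 115 and 78.9 CPM (-0.25 ± 0.19, adjusted p = 0.337). Hcar1, the lactate receptor that restrains lipolysis, was lower in every knockout, at 37.9, 24 and 33 against 14.3, 6.47 and 5.99 CPM (-1.83 ± 0.38 with all libraries, DESeq2 adjusted p = 0.000933; -1.79 ± 0.37 without control 3, adjusted p = 0.00586; 0.0639 without control 1 as well). Of 22 lipogenesis genes, 17 rose, 0 fell and 10 were higher without overlap. Fasn, fatty acid synthase, stood at 144, 180 and 529 against 526, 1347 and 719 CPM (2.42 ± 0.39). Thrsp, a nuclear protein of lipogenic tissues, stood at 262, 261 and 1472 against 1466, 1631 and 1637 CPM (2.6 ± 0.19). Scd1, a fatty acid desaturase, stood at 1331, 1612 and 676 against 2970.4, 3261 and 2814 CPM, with control 3 the lowest of the 6 (1.04 ± 0.20, adjusted p = 0.00337). Among 19 tested sterol synthesis genes, 7 rose and 2 fell (all libraries: 2 and 2 apart, DESeq2 0 and 1). Of 11 tested genes of the creatine and calcium cycles, which are proposed to burn energy without UCP1, 5 rose and 0 fell (all libraries: 3 and 0 apart, DESeq2 2 and 0), with a median of 0.82 without control 3 and -0.30 with it. Alpl, a phosphatase used in creatine cycling, stood at 3.61, 4.99 and 8.34 against 17.4, 11 and 17.6 CPM (1.83 ± 0.28, adjusted p = 0.00121). Adra1a, a noradrenaline receptor, stood at 1.31, 2.95 and 5.87 against 8.12, 13.5 and 10 CPM (2.31 ± 0.38). Atp2a2, the calcium pump SERCA2, stood at 109.8, 129.8 and 185 against 211, 219 and 201 CPM (0.82 ± 0.15). Atp2a1, the muscle form of that pump, was by far the highest in the muscle-rich control 3, at 3.87, 2.6 and 2083 against 0.926, 94.4 and 51.5 CPM.

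**Figure D4:**
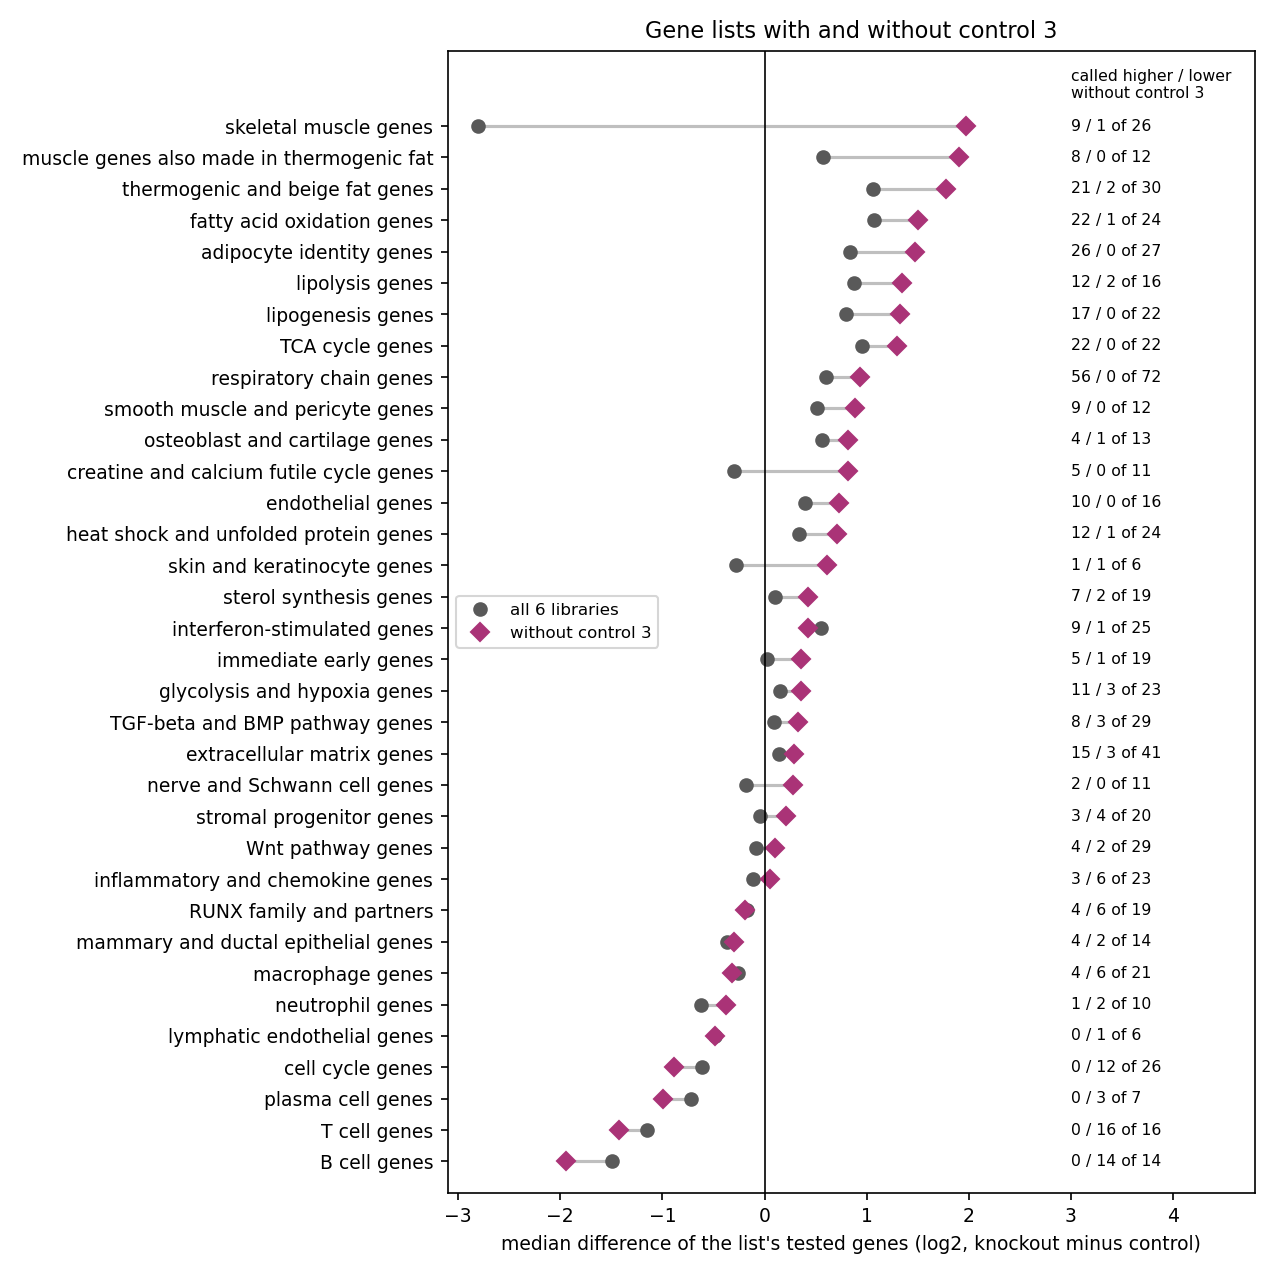
Median log2 difference (knockout minus control) of the tested genes of each list with at least 5 tested genes, with all 6 libraries (grey circles) and without control 3 (purple diamonds); the counts at the right are genes called higher and lower without control 3. Thermogenic, fatty acid oxidation and TCA cycle genes lie above 0 in both fits, B and T cell genes below 0 in both, and skeletal muscle genes change sign.

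Lymphocyte genes fell together without control 3. All 14 tested B cell genes and all 16 T cell genes fell, with medians of -1.95 and -1.43. With all libraries, 0 of the B cell genes and 8 of the T cell genes were lower in every knockout than in every control (11% of all genes), and DESeq2 called 2 and 10 lower. Cd79a, part of the B cell receptor, stood at 632, 539.7 and 103 against 133, 164 and 77 CPM (-2.23 ± 0.27, adjusted p = 0.000543). Cd37, a leukocyte tetraspanin, stood at 358, 333 and 83.5 against 97.7, 97.8 and 62.3 CPM (-2.0 ± 0.20), Cr2, a complement receptor of follicular B cells, at 66.1, 62.7 and 5.77 against 10.7, 18.2 and 7.28 CPM (-2.41 ± 0.32), and Fcer2a (CD23) at 111, 141 and 11.3 against 28.5, 35.5 and 11.6 CPM (-2.32 ± 0.40). For Cd22, an inhibitory receptor of B cells, control 3 was the lowest library of all, at 204, 323 and 21.8 against 60.1, 83 and 22.5 CPM (-2.25 ± 0.50, adjusted p = 0.0134). The calls of Cd22 and Fcer2a ended when control 1 or control 2 was left out as well, at adjusted p of 0.053 to 0.165. Cd3e and Cd4, of the T cell receptor complex and its coreceptor, did not overlap, at 172, 119.8 and 76 against 54.3, 58.4 and 47.4 CPM and 159, 147 and 68 against 54.5, 64.6 and 47.5 CPM (-1.45 ± 0.18 and -1.46 ± 0.16).

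Of 21 macrophage genes 4 rose and 6 fell, against 20.9% and 19.1% of all genes (all libraries: 1 and 2 apart, DESeq2 0 and 1). Marco, a scavenger receptor of macrophages in lymphoid organs, had the largest fall among the named genes: it stood at 101, 134 and 7.09 against 10.1, 13.9 and 9.96 CPM (-3.37 ± 0.20, adjusted p = 0.000123). Cd209b, a lectin made with it in marginal zones and lymph nodes, stood at 66.1, 112 and 9.1 against 12.1, 18 and 8.48 CPM (-2.78 ± 0.32, adjusted p = 0.000522). Il22ra2, a soluble decoy receptor for interleukin 22, stood at 19.5, 16.4 and 1.58 against 2.78, 2.17 and 1.71 CPM (-3.01 ± 0.25). In these genes control 3 lay with or below the knockouts, as in the B cell list. Timd4 and Mpeg1 followed the same order, at 51.5, 65.2 and 14.5 against 16, 27.9 and 16.3 CPM and 210.2, 186 and 80.1 against 78.8, 111 and 78.1 CPM, whereas Mertk, a receptor for dying cells, stood at 23, 31.4 and 37.2 against 52, 40.3 and 45.2 CPM (0.76 ± 0.18, adjusted p = 0.0104; 0.0923 without control 1 as well). Il10, an anti-inflammatory cytokine, differed in that control 3 was as high as the other controls: it stood at 6.5, 10.5 and 11 against 1.82, 0.462 and 1.08 CPM (-3.06 ± 0.51 with all libraries, DESeq2 adjusted p = 4.36e-07; -2.93 ± 0.47 without control 3, adjusted p = 0.00151). Cxcl2, a neutrophil chemokine, did the same, at 13.3, 15.2 and 27.9 against 6.33, 0.901 and 1.71 CPM (-2.27 ± 0.69, adjusted p = 0.036), a call that ended when control 1, control 2 or knockout 3 was left out as well, by DESeq2 (0.054), with no count filter (0.166) and in the joint fit with the Runx1 libraries (0.317). Of 23 tested inflammatory genes 3 rose and 6 fell (all libraries: 0 and 5 apart, DESeq2 0 and 4). Il33, an alarmin of stromal cells, stood at 17.9, 18.2 and 8.65 against 4.63, 6.93 and 6.39 CPM (-1.59 ± 0.22). Tnfaip3, a brake on NF-κB, stood at 159, 147 and 79.3 against 64.2, 57.5 and 49.7 CPM (-1.42 ± 0.15).

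Of 25 interferon-stimulated genes, 11 were higher in every knockout (13.7% of all genes), 0 were lower, DESeq2 called 7 higher with all libraries, and 9 rose, 1 fell and 15 were not called without control 3, against 20.9% and 19.1% of all genes. Ifit3, an antiviral RNA-binding protein, stood at 17.8, 14.1 and 20.4 against 30.7, 61.3 and 42.7 CPM (1.37 ± 0.28 with all libraries, DESeq2 adjusted p = 0.00207; 1.5 ± 0.27 without control 3, adjusted p = 0.00282). Ifit1 stood at 8.39, 5.8 and 8.8 against 12.8, 20.8 and 19.3 CPM (1.32 ± 0.27) and Oasl2, of the oligoadenylate synthetase family, at 8.51, 8.28 and 13 against 18.3, 26.5 and 13.8 CPM (1.22 ± 0.27).

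Of 41 extracellular matrix genes, 15 rose, 3 fell and 23 were not called, with a median of 0.28 (all libraries: 3 and 0 apart, DESeq2 1 and 0). For this list and the next ones, the shares of all genes were 20.9% and 19.1% (all libraries: 13.7% and 11% apart, DESeq2 3.82% and 3.18%). Col1a1, the main fibrillar collagen chain, overlapped at 155, 182 and 201 against 242, 194 and 167 CPM (0.26 ± 0.19, adjusted p = 0.293). Thbs2, a matrix thrombospondin, stood at 36.2, 90.7 and 328 against 591, 301 and 344 CPM (2.7 ± 0.46, adjusted p = 0.00304). Col4a2, of basement membranes, stood at 252, 397 and 692 against 858, 866 and 802 CPM (1.38 ± 0.22). Postn, periostin, stood at 107, 169.7 and 232 against 428, 229 and 292 CPM (1.2 ± 0.29). Fmod and Lum, small proteoglycans of collagen fibres, fell (-1.15 and -0.67). The calls of Postn and Lum ended when control 1 was left out as well (adjusted p of 0.0901 and 0.139). Of 27 osteoblast and cartilage genes, several of them known targets of RUNX2 in bone, 13 had counts that could be tested, 4 rose and 1 fell (all libraries: 3 and 2 apart, DESeq2 1 and 0). Sox6, a cartilage factor, stood at 5.93, 8.23 and 20.2 against 26.7, 17.3 and 20.1 CPM (1.6 ± 0.25), Pth1r, the parathyroid hormone receptor, at 11.3, 13.2 and 38.5 against 31.2, 25.6 and 40.4 CPM (1.4 ± 0.22), and Tnfsf11 (RANKL), the member that fell, at 4.21, 4.77 and 1.04 against 1.43, 1.59 and 1.43 CPM (-1.59 ± 0.28). Of 20 stromal progenitor genes, 3 rose and 4 fell, near the shares of all genes (all libraries: 3 and 3 apart, DESeq2 2 and 1). Sema3c, a semaphorin, stood at 2.49, 4.39 and 10.2 against 27.9, 26.5 and 19.8 CPM (2.85 ± 0.29, adjusted p = 0.000334). Thy1 and Dpp4, surface markers that lymphocytes also carry, stood at 327, 214 and 124 against 82.3, 109.7 and 91.1 CPM and 50.8, 56.2 and 22.5 against 24.6, 30.1 and 19.5 CPM (-1.51 ± 0.20 and -1.11 ± 0.19).

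Of 29 tested TGF-beta and BMP genes, 8 rose and 3 fell (all libraries: 1 and 1 apart, DESeq2 0 and 0). For each list of this paragraph, the shares of all genes were 20.9% and 19.1% (all libraries: 13.7% and 11% apart, DESeq2 3.82% and 3.18%). Tgfb1, a ligand of the pathway, stood at 114, 124 and 58 against 55.6, 59.6 and 40.1 CPM (-1.19 ± 0.18), Smad7, its inhibitor, at 72.8, 78.6 and 24.7 against 32, 35.7 and 29.5 CPM (-1.22 ± 0.14), and Id1, a BMP target, at 71.2, 60.8 and 172 against 166, 136 and 198 CPM (1.34 ± 0.19). Of 29 tested Wnt genes 4 rose and 2 fell, both below the shares of all genes (all libraries: 3 and 3 apart, DESeq2 1 and 2). Of 16 endothelial genes 10 rose and 0 fell (all libraries: 2 and 0 apart, DESeq2 0 and 0), with a median of 0.73 without control 3 and 0.40 with it. Of 12 smooth muscle and pericyte genes 9 rose and 0 fell (all libraries: 3 and 0 apart, DESeq2 1 and 0), with medians of 0.89 and 0.52. Kdr, the main receptor for VEGF, stood at 119, 154 and 268 against 305, 287 and 357 CPM (1.21 ± 0.18, adjusted p = 0.00116). Kcnj8, a pericyte potassium channel, stood at 9.8, 14.1 and 14.7 against 32.8, 27.7 and 28.2 CPM (1.31 ± 0.20, adjusted p = 0.00118). Sox18, an endothelial transcription factor, was among the lowest p-values with all libraries, at 10.4, 10.5 and 14 against 32.5, 55.5 and 49.1 CPM (1.97 ± 0.25, adjusted p = 0.218; DESeq2 adjusted p = 3.01e-09). With libraries scaled to the adipocyte list the differences of Kdr and Eng, at 91.2, 127 and 178 against 246, 186 and 247 CPM for Eng, turned to lower with all libraries.

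Of 26 cell cycle genes 12 fell and 0 rose (all libraries: 0 and 1 apart, DESeq2 0 and 0), with Ccne1 at 12.1, 11.1 and 4.6 against 3.82, 6.08 and 3.57 CPM and the replication helicase subunit Mcm5 at 50.1, 40.2 and 20.8 against 16.5, 29.8 and 15.7 CPM, and with control 3 among the knockouts in both. The call of Mcm5 ended without control 1 as well (adjusted p = 0.0868). Of 24 heat shock and unfolded protein genes, 12 rose and 1 fell (all libraries: 7 and 2 apart, DESeq2 5 and 0). For each list of this paragraph, 20.9% of all genes rose and 19.1% fell (all libraries: 13.7% and 11% apart, DESeq2 3.82% and 3.18%). Asns, asparagine synthetase, stood at 40.9, 51 and 186 against 251, 171 and 201 CPM (2.18 ± 0.20). Chac1, which breaks down glutathione, stood at 1.36, 2.52 and 7.27 against 15.5, 8.46 and 13.9 CPM (2.7 ± 0.37); both are targets of ATF4. Of 23 glycolysis and hypoxia genes, 11 rose and 3 fell (all libraries: 6 and 1 apart, DESeq2 3 and 1). Hk2, the insulin-responsive hexokinase, stood at 45.5, 51.2 and 151 against 159, 143 and 174 CPM (1.72 ± 0.16). Pgam1, phosphoglycerate mutase, stood at 28.1, 39.1 and 61.1 against 85.1, 122 and 121 CPM (1.71 ± 0.22). Ankrd37, a hypoxia target, was lower in every knockout, at 5.79, 4.86 and 1.6 against 1.08, 0.832 and 0.771 CPM (-2.57 ± 0.31, adjusted p = 0.000483).

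Some leading genes belonged to none of the lists. With all libraries, Adam12, a membrane metalloprotease, followed Elmod2 in p-value, at 10.3, 11.1 and 8.67 against 32.5, 57.8 and 56.1 CPM (2.29 ± 0.26, adjusted p = 0.195; DESeq2 adjusted p = 2.54e-11). The genes of lowest p-value that were lower, under the naming rule, were Cpxm1, a secreted carboxypeptidase-like protein, at 79.2, 83.7 and 81.5 against 45.2, 47.5 and 47.8 CPM (-0.80 ± 0.13), Ankrd33b, an ankyrin repeat protein, at 22.6, 18.1 and 19 against 8.57, 10.2 and 8.28 CPM (-1.14 ± 0.19), Il10, Tnni3, cardiac troponin I, at 9.78, 6.51 and 6.69 against 2.96, 2.36 and 2.37 CPM (-1.58 ± 0.28), and Mllt3, a chromatin reader, at 24.5, 21 and 27 against 11.6, 13.9 and 11.1 CPM (-0.99 ± 0.19). All had an edgeR adjusted p of 0.218 and none passed; DESeq2 called these 5 and Adam12. Under the same rule without control 3, the largest rises were those of Ucp1 and of Gys2, the liver form of glycogen synthase, at 0.383, 0.473 and 10.6 against 2.36, 10.5 and 33.1 CPM, where control 3 overlapped the knockouts. Mtarc1, a mitochondrial reductase, stood at 0.359, 0.58 and 1.37 against 10, 7.67 and 10.2 CPM (4.29 ± 0.34, adjusted p = 0.000252). Acot5, a peroxisomal acyl-CoA thioesterase, stood at 0.908, 1.07 and 2.44 against 6.45, 22.5 and 23 CPM (4.13 ± 0.58). Phospho1, a phosphatase of phosphocholine, stood at 0.693, 0.946 and 3.05 against 3.2, 15.4 and 13.3 CPM (3.69 ± 0.67). In 4 others control 3 was within or above the range of the knockouts: Anxa8, a calcium-dependent membrane binding protein (5.59, 5.07 and 74.5 against 117, 82.7 and 73.8 CPM), Agt, angiotensinogen (18.8, 40.2 and 348 against 549, 227 and 329 CPM), Apoc3 (1.0, 0.731 and 14.5 against 10.4, 11.2 and 14.5 CPM) and Serpina3k (4.35, 0.559 and 27.1 against 52.9, 24.2 and 14.3 CPM). Leaving out control 1 or control 2 as well ended the calls of Gys2, Phospho1 and Serpina3k, at adjusted p of 0.0508 to 0.288, and leaving out control 1 that of Acot5, at 0.0507. The calls of Gys2 and Serpina3k also ended without knockout 2, at 0.0813 and 0.0996, and that of Serpina3k without knockout 3, at 0.0939.

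The most similar comparison of the series is the adipocyte knockout of Runx1 in the same depot, labelled Adipoq-cre:Runx1 KO, with 3 libraries and 3 controls of its own. The difference between both knockout effects was tested in 1 fit over the 12 libraries; it cannot be told apart from a difference between the tables. On its own that knockout had 1189 of 15896 genes called (7.48%), 708 higher (4.45%) and 481 lower (3.03%). Muscle transcripts were uneven there too, at 9637 CPM in control 2 and 22510 and 10750 CPM in knockouts 2 and 3 against 99.99 to 348.1 CPM in the others. The difference passed for 260 of 16416 genes (1.58%), 166 higher (1.01%) and 94 lower (0.573%) in Runx2 minus Runx1, and without Runx2 control 3 for 4173 of 16744 (24.9%). Ucp1 stood at 9.22, 21.5 and 15.6 CPM in the Runx1 controls and 163, 58.6 and 119 CPM in the Runx1 knockouts, a difference of 2.88 ± 0.53, and the difference of its effects was not called (2.52 ± 1.17, adjusted p = 0.241).

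For several named genes the libraries lay on opposite sides of their controls in the 2 knockouts. Irf4 stood at 424, 1320.5 and 314 CPM in the Runx1 controls and 41.9, 42.6 and 56.3 CPM in the Runx1 knockouts, so the effects differed by 5.53 ± 0.81 (edgeR adjusted p = 0.016). Ppargc1a stood at 115, 99.5 and 91.6 against 21.9, 12.4 and 37.2 CPM there, a difference of effects of 3.89 ± 0.49 (adjusted p = 0.0128). Nr4a3, an orphan nuclear receptor induced by cAMP, stood at 113, 87.5 and 180.1 against 553, 276 and 410 CPM in the Runx2 set and at 511, 497 and 218 against 74.3, 43.3 and 126 CPM in the Runx1 set (4.06 ± 0.62, adjusted p = 0.016), where its own difference was not called (adjusted p = 0.0672). Drd1, a dopamine receptor coupled to cAMP, stood at 1.86, 2.11 and 6.05 against 8.72, 12.9 and 11.6 CPM and, in the Runx1 set, at 2.55, 5.86 and 3.51 against 0.668, 0.259 and 0.542 CPM (4.78 ± 0.72, adjusted p = 0.016). In each of these the Runx2 knockouts lay above all their controls and the Runx1 knockouts below all of theirs. Hcar1 went the other way, with 5.49, 3.53 and 4.84 CPM in the Runx1 controls and 45.1, 71.9 and 33.4 CPM in the Runx1 knockouts (-5.24 ± 0.53, adjusted p = 0.00294). The effects also differed for Adrb3, at 52.2, 60.8 and 35.9 against 341, 245 and 155 CPM in the Runx1 set (-2.76 ± 0.43, adjusted p = 0.016). In the Runx2 set the groups overlapped for Adrb3, which was not called there.

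Other genes differed in the Runx2 set while the groups of the Runx1 set overlapped. Elmod2 stood at 88.1, 136 and 80.1 CPM in the Runx1 controls and 129, 78.3 and 143 CPM in the Runx1 knockouts, where Ucp1 was higher in every knockout, and the effects differed by 2.36 ± 0.37 (adjusted p = 0.016; 2.54 ± 0.36 without Runx2 control 3). Dio2, at 16.8, 15 and 15.9 against 27.6, 12.2 and 15.7 CPM, differed by 2.99 ± 0.60 (adjusted p = 0.0333), and Adam12, at 43.3, 39.3 and 41.3 against 56.1, 35.9 and 39.1 CPM, by 2.23 ± 0.33 (adjusted p = 0.016). Of 30 tested thermogenic genes the effect was higher for 4 and lower for 1 in the 12-library fit (1.01% and 0.573% of all genes). Without Runx2 control 3 it was higher for 6 and lower for 2 of 30 (13.7% and 11.3% of all genes). The B cell list differed for 0 of 14 genes with control 3 and for 14 of 14, all lower, without it; its sum ranged from 2235 to 3130 CPM over the 6 libraries of the Runx1 set.

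**Figure D5:**
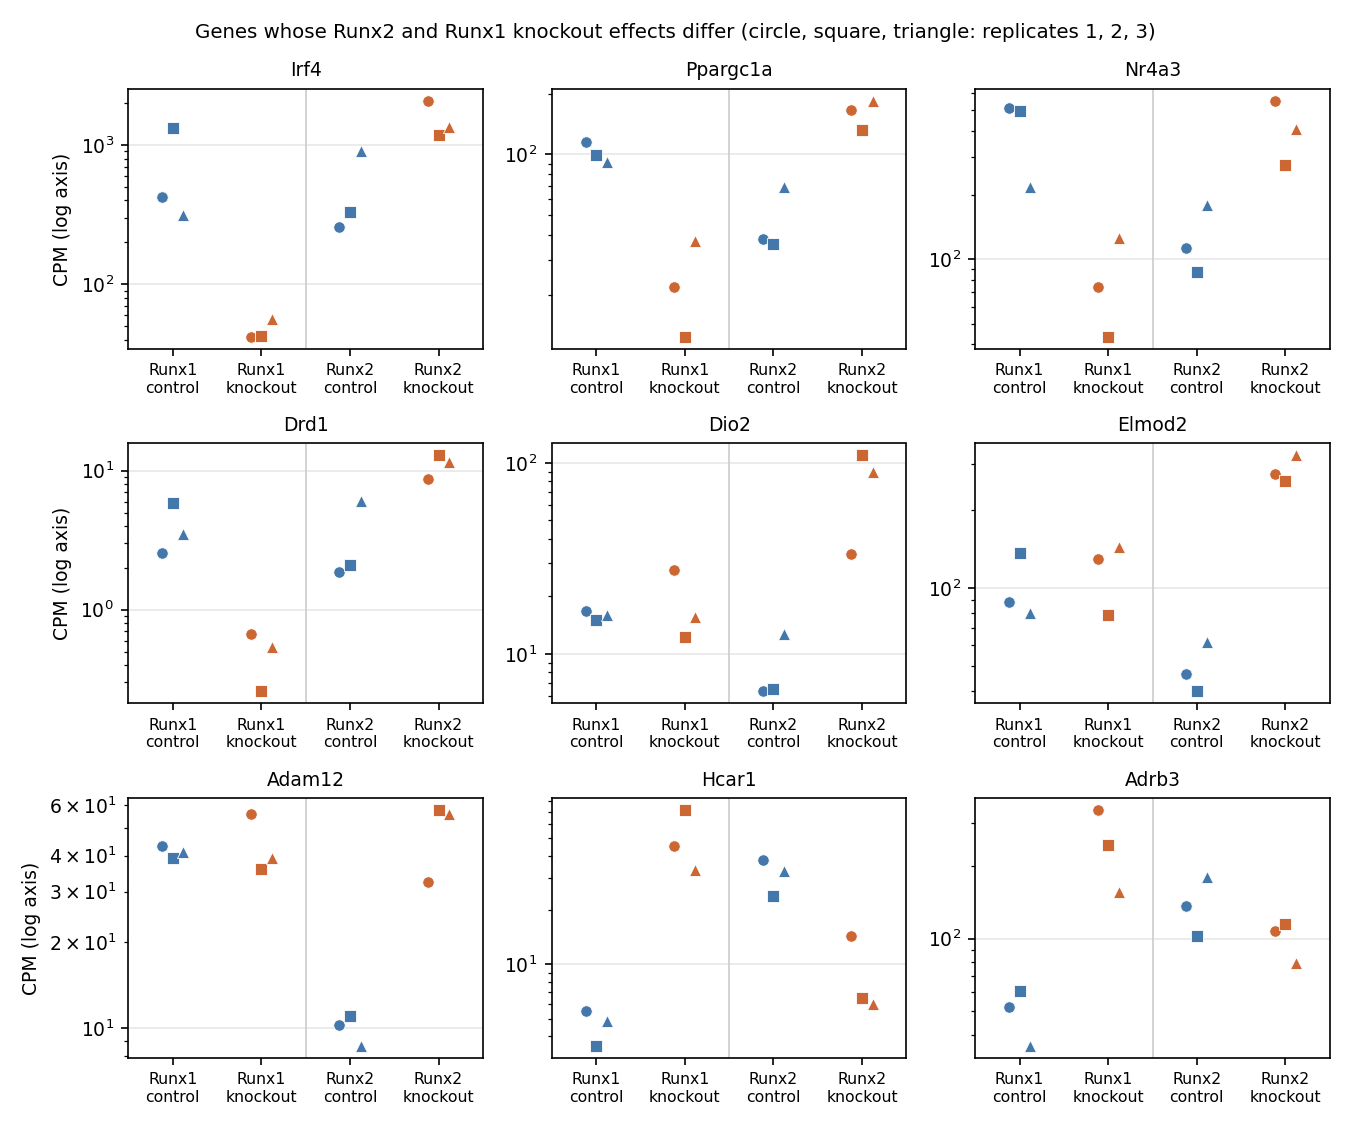
Level of 9 genes (CPM, log axis) in the Runx1 and Runx2 controls (blue) and knockouts (orange), with a circle, square and triangle for replicates 1, 2 and 3. Irf4, Ppargc1a, Nr4a3 and Drd1 are lower in the Runx1 knockouts and higher in the Runx2 knockouts than in their own controls, Hcar1 shows the reverse, Adrb3 separates only the Runx1 groups, and Elmod2, Adam12 and Dio2 separate only the Runx2 groups.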

How the data were processed

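Raw counts per gene, deposited by the authors for polyA RNA of iWAT, were used as deposited; per the submitters' processing notes fastp, STAR and featureCounts were used with build mm39 (versions and strand setting not given in the sources used here). Between 73% and 74.9% of counts from 1 to 19 were even, so both mates of a pair may have been counted, which was not tested. Depth was 37004302 to 44374156 counts per library. Counts were filtered (filterByExpr), scaled by TMM and tested with edgeR 4.0.16 (robust quasi-likelihood, R 4.3.3) with Benjamini-Hochberg adjustment over all genes tested, called under 0.05, over all 6 libraries and over 5 without control 3. The Runx1 comparison and the difference of effects used the 12 libraries of both tables. DESeq2 1.42.0, other scalings, no filter, a replicate block, each library left out and a joint fit were alternatives. An antisense or overlapping partner cannot be told apart from its gene. The scripts were tested on simulated data. Figures used matplotlib 3.10.9.

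The members, the 37 gene lists and the tests were chosen with earlier results of these data known. Named were fixed genes, up to 12 called genes each way by fold without control 3 (mean CPM at least 5, no overlap), the 5 of lowest p each way with all libraries, up to 3 called genes per list and direction, and 5 each way for the difference; other list members and the neighbours of Ucp1 were named after their values were seen. Some genes that the rule names are not reported here. No 2 libraries were identical. Replicate numbers were not taken as pairs, since not every correlation of same-numbered deviations exceeded 0.1: -0.072, 0.32 and 0.47.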

Additional observations from a re-analysis of the deposited data

Results flagged for a closer look

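The following genes had knockout effects that differed between the Runx2 and Runx1 sets, by the test of the difference over 12 libraries (edgeR adjusted p under 0.05). The log2 difference (Runx2 minus Runx1 effect) was 5.53 for Irf4, 4.78 for Drd1, 4.06 for Nr4a3, 3.89 for Ppargc1a, 3.86 for Fam222a and 2.99 for Dio2. It was 2.36 for Elmod2, 2.28 for Alpl, 2.23 for Adam12, 1.83 for Kdr and 1.78 for Tle1. It was -5.24 for Hcar1, -2.76 for Adrb3, -2.56 for Ankrd37 and -1.55 for Ankrd33b. With each of the 12 libraries left out in turn, the call stood 12 times of 12 for Hcar1, 11 for Ppargc1a and 10 for Irf4, Drd1, Nr4a3, Fam222a, Elmod2, Adam12 and Adrb3. It stood 7 times for Tle1, 5 for Ankrd33b, 3 for Dio2, 2 for Kdr and 1 for Alpl and Ankrd37.

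Fam222a, of little described function, stood at 6.6, 8.88 and 16.5 CPM in the controls and 41.7, 22.4 and 29.7 CPM in the knockouts of the Runx2 set and at 15.9, 22.3 and 21.8 against 4.15, 2.59 and 5.67 CPM in the Runx1 set. Tle1 stood at 99.1, 114 and 89 CPM in the Runx1 controls and 46.8, 48.6 and 62.8 CPM in the Runx1 knockouts, and Kdr at 182, 235 and 182 against 128, 75.4 and 98.3 CPM.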

How the results depend on the processing

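With all 6 libraries, DESeq2 size factors, no filter, a replicate block and scaling to the adipocyte list each left 0 genes called. DESeq2 called 1039, the joint fit with the Runx1 libraries gave 46, a muscle score as covariate 2193 and a lymphocyte score 50. The muscle score mostly sets control 3 apart, so its fit is not separate from leaving that library out. Leaving out 1 library gave 0 to 6354 calls: 6354 without control 3, 5 without knockout 1 and 0 for each of the others. Without control 3, calls ranged from 3558 to 6481 when each further library was left out (3558 without control 1, where the lone control is assumed to vary like the knockouts), and the replicate block gave 3726; DESeq2, its size factors, no filter and the joint fit stayed within 1.5 times of 6354. The difference of effects had 260 calls over 12 libraries, 1618 by DESeq2, 8 with a replicate block and 3 to 4173 with 1 library left out (3 without Runx2 knockout 3, 4 without Runx1 knockout 2, 42 without Runx1 control 2, 47 without Runx2 knockout 1, 49 and 74 without Runx2 controls 2 and 1, 81 and 145 without Runx1 knockouts 3 and 1, 110 without Runx1 control 1). Without Runx2 control 3 it had 4173, with a replicate block 2084, and 1937 to 4533 with 1 further library left out. What the replicate numbers share is not given in the sources used here, so whether the block is apt was not settled.

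Of 119 named genes tested without control 3, 113 were called, against 40% of all genes. Many were named because this same fit called them, so that count largely follows from the naming rule. Of these calls, 9 each were lost with no filter or the block (edgeR adjusted p = 0.102 for Ucp1, at 5.59, and 0.0506 for Cxcl2 with the block). Leaving out knockouts 3, 2 and 1 lost 5, 3 and 0. More were lost without control 1 or control 2, which leaves a lone control. These signs turned with all 6 libraries, and the cause was not tested. Scaled to the adipocyte list: Tle1 -0.18, Cox7a1 -0.091, Prdm16 -0.28, Scoc -0.34, Pparg -0.16, Fabp4 -0.073, Atp2a2 -0.38, Mertk -0.41, Col1a1 -0.87, Postn -0.032, Id1 -0.10, Kdr -0.073, Eng -0.16, Pth1r -0.11 and Ddx3y -0.68. With the lymphocyte score: Runx3 0.15, Cox7a1 -0.18, Prdm16 -0.24, Cpt1a 0.094, Marco 0.022, Cr2 0.55, Fcer2a 0.66, Cd22 0.81, Timd4 0.19, Smad7 0.15, Pth1r -0.090 and Tnfsf11 0.15. With the muscle score: Atp2a1 0.18, Acta1 0.56 and Ckm 2.65; with the block: Acta1 0.73 and Ckm 1.09. Over single libraries left out, Acta1 ranged from -2.39 to 2.02, Ckm ranged from -4.63 to 7.45 and Atp2a1 ranged from -4.72 to 3.93, the highest without control 3. Lep without control 3 was 0.22 with the block and ranged from -0.73 to 0.83 with a further library left out.

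Control 3 differed from the other controls in muscle, lymphocyte and adipocyte transcripts, which limits the precision of 3 controls for such genes. The limit is wider than these genes. Across 15574 genes, Pearson's r of control 3 was 0.972 to 0.979 with the knockouts and 0.929 and 0.935 with controls 1 and 2. The edgeR test called 0 genes with control 3 and 6354 without it, so the edgeR calls reported here rest on leaving it out. Genes under a few counts per library, such as most bone genes, could not be tested.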
